A study of Oryctolagus cuniculus with 30 samples.

Results

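The uninjured vocal folds of 3 New Zealand white rabbits are described here, as 6 of the 30 RNA-seq libraries of a study of vocal fold injury. They were taken as the libraries labelled as having had neither injury nor injection, with the right and left fold of each animal sequenced separately and named here animals 1, 2 and 3. The study had 15 rabbits in 5 groups of 3. The injury_only animals, which serve for comparison, had both folds stripped of their superficial mucosa and no injection. The other 3 injured groups also had both folds stripped and were injected in both folds 7 days later with collagen type I (Col1), with VFLP (man) or with VFLP (au), which are hydrogels derived from vocal fold lamina propria. Tissue of the injured animals was taken 28 days after treatment, and no interval is listed for the uninjured animals. No age is listed, and the labels name 6 rabbits a group, 3 of them for RNA.

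The vocal fold is a layered organ that vibrates to make sound. Its surface is a stratified squamous epithelium without a horny layer, resting on a lamina propria of collagen, elastic fibres, proteoglycans and hyaluronan made by fibroblasts. Beneath this lies the vocalis muscle, a fast striated muscle, while mucous glands and ciliated airway epithelium border the fold above and below. The samples were dissected as mucosa, per the labels. In whole tissue, fewer cells of a type and less RNA per cell cannot be told apart.

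The 6 uninjured libraries held 14.2 to 27.5 M reads assigned to genes, against 18.1 to 31.9 M in the 24 injured libraries. Of all reads, 14.5 to 34.5% mapped to several places in the uninjured libraries, against 11.1 to 20.0% in the injured ones, and these reads are counted for no gene. The right fold of animal 2 had the fewest gene reads. None of the 15 pairs of these libraries were alike within counting noise (chi-square over its degrees of freedom 97.4 or more). Levels are given as CPM, reads of a gene per 1e6 reads assigned to genes, with no correction for gene length. A rank therefore orders genes by their share of reads, not by the number of transcripts.

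A mean of at least 1 CPM was found for 13657 of 31346 entries, and 11670 entries had at least 1 CPM in each of the 6 libraries. No read was counted in any of the 6 libraries for 9345 entries. The reads were unevenly concentrated. The 10 entries of highest level in a library took 12.6% of the reads in the left fold of animal 1 and 32.2% in the right fold of animal 2. To reach 50% of the reads took 315 and 589 entries in the right and left fold of animal 1, 57 and 145 in those of animal 2, and 172 and 441 in those of animal 3. In each animal the right fold thus spread its reads over fewer entries than the left.

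Mitochondrial transcripts, skeletal muscle genes and squamous epithelium genes stood at the head of the list. A block of 37 entries with the layout of a mitochondrial genome (13 protein, 22 tRNA and 2 rRNA entries) took these shares of the gene reads: 12.7 and 5.43% in the right and left fold of animal 1, 29.0 and 24.3% in those of animal 2, and 16.7 and 11.2% in those of animal 3. These entries are taken as mitochondrial and are not named singly here. Animal 2 was highest in both folds. The 18S ribosomal RNA entry RN18S, whose RNA a poly(A) selection should largely remove, took 2.44, 1.48 and 6.57% in the right folds and 4.11, 1.96 and 1.79% in the left folds, and was highest in the right fold of animal 3. The 40 symbols of highest mean CPM reached down to rank 50, the other 10 entries above that rank all being mitochondrial. After RN18S, they were led by MYH1, ALDOA, GAPDH, ACTC1, KRT4, ATP2A1, TTN, EEF1A1 and KRT13, a mixture of muscle, glycolysis and squamous epithelium.

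**Figure D1:**
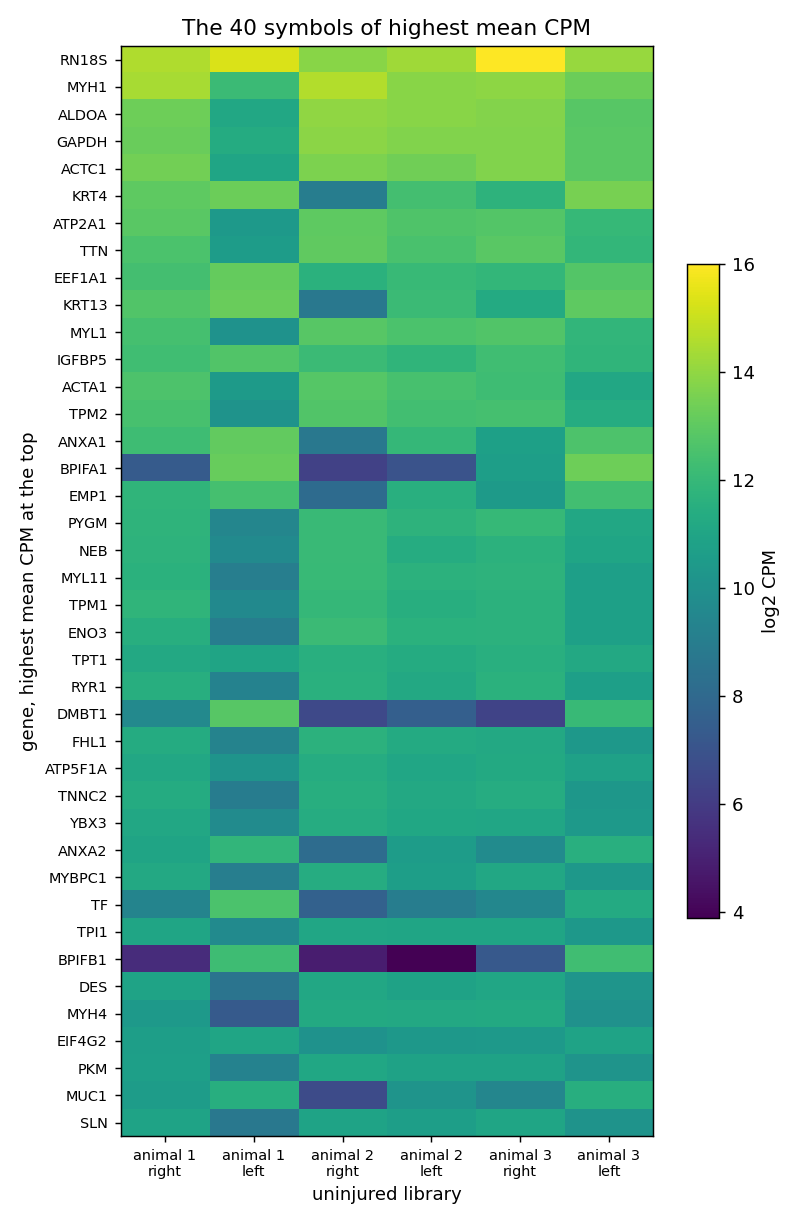
Level of the 40 symbols of highest mean CPM (rows, highest at the top) in the 6 uninjured libraries (columns, right before left fold of each animal), coloured by log2 CPM. Muscle genes such as MYH1 were lowest in the left fold of animal 1, the keratins KRT4 and KRT13 were lowest in the right fold of animal 2, and BPIFA1, DMBT1 and BPIFB1 were high in the left folds of animals 1 and 3.

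Skeletal muscle genes took 10.3 and 2.21% in the right and left fold of animal 1 and 12.4 and 8.92% in those of animal 2. In the right and left fold of animal 3 they took 10.1 and 5.55%. They were summed over 5 lists of sarcomere, fast fibre, slow fibre, craniofacial myosin and excitation-contraction genes, with 62 of 64 members found at 1 CPM or more. The excitation-contraction list holds calcium release genes and also membrane channel and acetylcholine receptor genes. The sarcomere list also holds muscle enzymes such as PYGM and ENO3. ACTC1 and SLN, given below, are in none of the 5 lists. MYH1, the fast IIx myosin heavy chain, had 21616, 25026 and 15861 CPM in the right folds and 4593, 14553 and 9888 CPM in the left folds. TTN, the giant spring of the sarcomere, had 5997, 8450.4 and 7578 CPM in the right folds and 1530.2, 5849.6 and 3851 CPM in the left folds. These right folds were each above the left fold of the same animal, and the left fold of animal 1 was lowest. ACTC1, the cardiac type of alpha actin, had 11126, 12598 and 13184 CPM in the right folds and 2064, 10733 and 7551 CPM in the left folds. ACTA1, the skeletal type, had 6222, 7169 and 4787 CPM in the right folds and 1452, 5647 and 2261 CPM in the left folds. Actin genes are close in sequence, so the division of reads between them is uncertain. ATP2A1, the calcium pump of fast fibres, had 7626, 8205 and 7029.7 CPM in the right folds and 1414, 6421 and 4134 CPM in the left folds. SLN, the peptide sarcolipin that restrains this pump, had 1953, 1950.4 and 2039 CPM in the right folds and 422, 1621 and 1110.4 CPM in the left folds. RYR1, the calcium release channel, had 2847, 3019 and 3157 CPM in the right folds and 617, 2370.3 and 1700.4 CPM in the left folds. Each of these was higher in the right fold of every animal.

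Among the myosin heavy chains MYH1 took most reads in every library. Of the reads of 9 sarcomeric myosin heavy chain genes, MYH1 took 77.0 to 89.3%, MYH4, the IIb chain, 3.14 to 12.5%, and the rest smaller parts. MYH13, the extraocular chain also known from laryngeal muscle, had 2339, 1490.2 and 1132 CPM in the right folds and 276, 1152 and 635 CPM in the left folds. MYH6, the alpha cardiac chain, took 1.45 to 4.24% and MYH7, the slow chain, 0.197 to 1.93%. MYH7 was highest in the right fold of animal 3, with 51.1, 129.7 and 396 CPM in the right folds and 15.8, 134 and 42.4 CPM in the left folds. The embryonic chain MYH3 and the neonatal chain MYH8 were low, at 4.03 to 38.3 CPM and 14.9 to 274 CPM. No read was counted for MYH15, which with 130.6 M gene reads over the 6 libraries allows a level of up to 0.0230 CPM (3 counts, counting error only). MYH2 is not analysed here, and reads shared by several of these genes are lost or divided, so these shares are uncertain. The satellite cell regulators PAX7 and MYF5 were present at 1.19 to 5.19 CPM and 0.451 to 4.43 CPM, and MYF6, a regulator of mature fibres, at 42.6 to 244 CPM.

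Genes of glycolysis were also among the first 40. ALDOA, an aldolase of glycolysis, had 10298, 16436 and 13902 CPM in the right folds and 2240.3, 14784 and 7460.4 CPM in the left folds. GAPDH, a glycolytic enzyme often used as a constant control, had 9608, 15499.8 and 13546 CPM in the right folds and 2592, 13274 and 7611 CPM in the left folds. GAPDH was thus lowest in the left fold of animal 1, the fold of the lowest muscle share, and highest in the right fold of animal 2, the fold of the highest. PYGM, the muscle glycogen phosphorylase, had 3509.9, 4395 and 4105 CPM in the right folds and 703, 3331 and 2273 CPM in the left folds. The 30 nuclear genes of oxidative phosphorylation were all at 1 CPM or more and took together 1.13, 1.34 and 1.28% in the right folds and 0.460, 1.11 and 0.850% in the left folds, in the same order of folds as muscle within each animal.

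Squamous epithelium genes, over 3 lists of basal, differentiated and junction genes, took 3.50 and 5.75% in the right and left fold of animal 1, 0.291 and 2.48% in those of animal 2, and 1.43 and 5.04% in those of animal 3. Their lowest share was in the right fold of animal 2, which also had the fewest reads and the highest muscle share. KRT4, the keratin of non-horny squamous epithelium, had 8116, 519 and 3383 CPM in the right folds and 10055, 5359 and 11636 CPM in the left folds. KRT13, its partner, had 6679, 433 and 2488 CPM in the right folds and 9535, 4597 and 8207 CPM in the left folds. Both were higher in the left fold of every animal. The basal keratin KRT5 had 1060.2, 77.2 and 512 CPM in the right folds and 1811, 669 and 2032 CPM in the left folds. TP63, the regulator of the basal layer, had 190.4, 17.5 and 63.6 CPM in the right folds and 531, 114 and 323 CPM in the left folds. The annexin ANXA1, abundant in squamous cells, had 4801, 422 and 1762 CPM in the right folds and 8639.8, 3996 and 6361 CPM in the left folds. The adhesion protein CDH1 of junctions had 377, 25.6 and 181 CPM in the right folds and 960.2, 256 and 842 CPM in the left folds. These followed the keratins in each animal. KRT14 and KRT6A are not analysed here.

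The share of keratin reads ranged 20.2-fold over the 6 libraries, from 0.122% to 2.48% of gene reads, while their division among keratins moved within narrower limits. KRT4 took 40.6 to 47.8% of keratin reads, KRT13 33.7 to 38.5%, KRT5 5.45 to 8.34%, KRT15, a basal keratin, 3.04 to 4.61% and KRT7, a keratin of simple and glandular epithelium, 1.70 to 3.26%. The division in the right fold of animal 2, the library with the fewest keratin reads, lay within the range of the other libraries for the leading pair, with KRT4 at 42.4% and KRT13 at 35.4%.

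**Figure D2:**
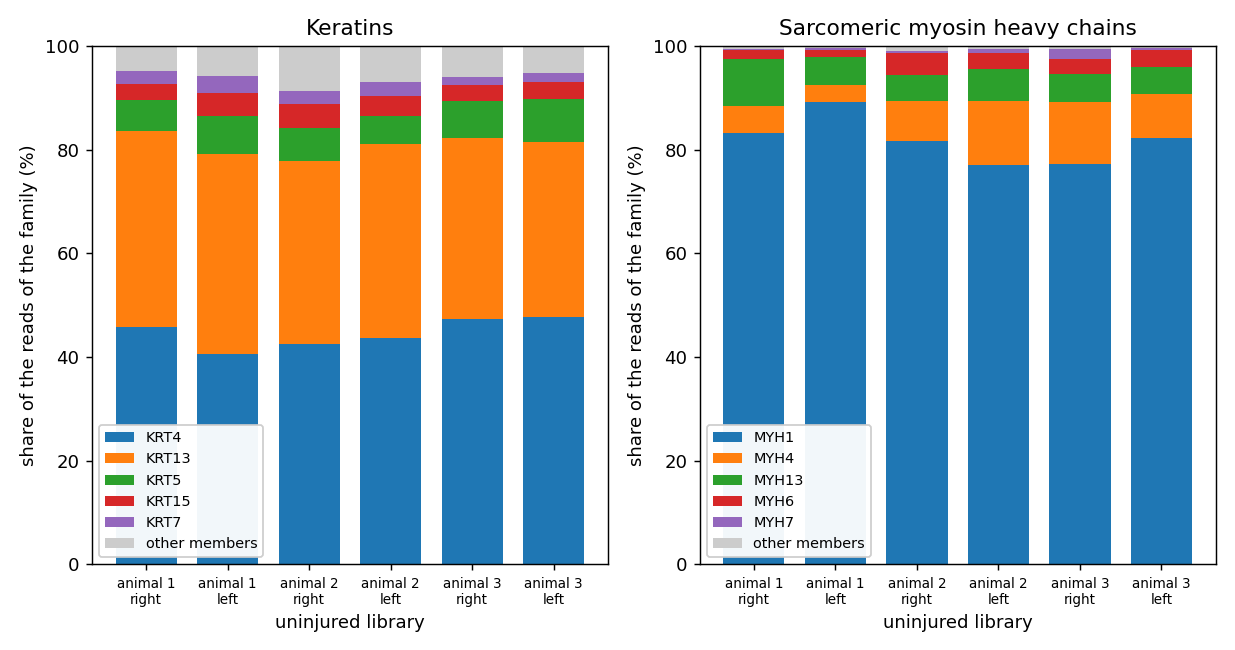
Division of the reads of 30 keratin genes (left) and 9 sarcomeric myosin heavy chain genes (right) among their members, as a percentage of the reads of the family in each of the 6 uninjured libraries. KRT4 and KRT13 made up most keratin reads in every library, and MYH1 made up 77.0 to 89.3% of the myosin reads.

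The secretory and gland genes differed widely between folds. They took 0.197 and 2.71% in the right and left fold of animal 1, 0.0334 and 0.134% in those of animal 2, and 0.427 and 2.20% in those of animal 3, so that the left folds of animals 1 and 3 stood above the other 4 libraries. BPIFA1, a secreted defence protein of upper airway epithelium, had 168, 76.0 and 1629 CPM in the right folds and 9392, 126 and 10133 CPM in the left folds. BPIFB1, a related protein of mucous glands, had 42.9, 28.7 and 156 CPM in the right folds and 4896, 14.8 and 4972 CPM in the left folds. DMBT1, a mucosal scavenger protein, had 781, 93.1 and 79.7 CPM in the right folds and 7319.9, 189.7 and 4275 CPM in the left folds. All 3 were high in the left folds of animals 1 and 3 and low in both folds of animal 2. PIGR, which carries antibodies into secretions, had 167, 37.1 and 415 CPM in the right folds and 3078, 158 and 1192 CPM in the left folds. The iron carrier TF, also known from glands, had 664, 199 and 712 CPM in the right folds and 6118, 528 and 2513 CPM in the left folds. JCHAIN, the joining chain of secreted antibodies, had 57.0, 92.1 and 60.8 CPM in the right folds and 353, 88.8 and 231 CPM in the left folds and was likewise highest in the left folds of animals 1 and 3. The mucin MUC5AC and BPIFB2 had 0 reads in all 6 libraries. MUC1, a mucin of the cell surface that squamous cells also carry, had 1516, 101 and 703 CPM in the right folds and 2836, 1147 and 2841 CPM in the left folds, following the keratins instead. Ciliated epithelium genes took at most 0.00287% of the reads in 5 libraries and 0.0350% in the right fold of animal 3. FOXJ1, the regulator of motile cilia, had 0, 0.0706 and 21.3 CPM in the right folds and 0.533, 0.341 and 1.75 CPM in the left folds, and the dynein DNAH5 had 0.109, 0.0706 and 73.6 CPM in the right folds and 0.779, 1.75 and 2.54 CPM in the left folds. SCGB1A1, the secretoglobin of club cells, was also highest there, with 4.44, 1.98 and 1314 CPM in the right folds and 7.96, 78.6 and 166 CPM in the left folds.

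Genes of the lamina propria kept a narrower range as a sum. Summed over 5 lists of fibrillar collagen, fibroblast, elastic fibre, proteoglycan and matricellular genes, they took 1.13 and 1.03% in the right and left fold of animal 1, 1.13 and 0.792% in those of animal 2, and 1.08 and 0.827% in those of animal 3. The highest share was 1.42 times the lowest, against 19.8 times for squamous epithelium and 5.61 times for skeletal muscle. Of 76 lamina propria members at a mean of 1 CPM or more, 50, 66 and 62 were higher in the right fold of animals 1, 2 and 3. Members of opposite order narrow the range of a sum. Single lists ranged 2.47 times for fibrillar collagen, 2.06 for fibroblast, 2.04 for elastic fibre, 1.41 for proteoglycan and 1.52 for matricellular genes. In the left fold of animal 1 the fibroblast share was lowest and the elastic fibre share highest. DCN, the proteoglycan decorin that binds collagen fibrils, had 822, 1297 and 1363 CPM in the right folds and 687, 885 and 773 CPM in the left folds. The matrix glycoprotein SPARC had 1109, 748 and 541 CPM in the right folds and 1058, 737 and 479.9 CPM in the left folds. DCN was higher in the right fold of every animal, and SPARC was highest in both folds of animal 1. The collagens COL3A1 and COL1A2 had 183 to 666 CPM and 182 to 315 CPM, and COL1A1 had 85.6 to 176 CPM. ELN, the core of elastic fibres, had 123, 67.0 and 113 CPM in the right folds and 69.5, 49.4 and 67.0 CPM in the left folds. Elastin thus was higher in the right fold of each animal. FBN1, a fibrillin of the same fibres, had 219, 136 and 129.8 CPM in the right folds and 448, 131 and 197 CPM in the left folds, with no common order of the folds. The fibroblast markers PDGFRA and PDGFRB had 36.8 to 93.5 CPM and 34.2 to 61.1 CPM. MGP, an inhibitor of calcification, had 850.2, 715 and 650.2 CPM in the right folds and 349, 264 and 274 CPM in the left folds, and was higher in the right fold of each animal. Growth factor binding protein IGFBP5, at rank 20, had 4943, 4541 and 5081 CPM in the right folds and 6819, 3601 and 3631 CPM in the left folds. CD44, the hyaluronan receptor, had 554, 83.2 and 208 CPM in the right folds and 1251, 309.6 and 814 CPM in the left folds, following the epithelial genes and not the matrix.

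Vessel genes, over 5 lists, took 0.211, 0.360 and 0.308% in the right folds and 0.185, 0.328 and 0.192% in the left folds. This sum joins lists of unlike order. General endothelial genes were lowest in the left fold of animal 1 (0.0277%) and highest in the right fold of animal 2 (0.113%). The venous list was highest in the former fold (0.0909%) and lowest in the latter (0.0199%). The endothelial markers PECAM1 and VWF had 27.6 to 126 CPM and 42.4 to 188 CPM, lowest in the left fold of animal 1 and highest in the right fold of animal 2. LPL, the lipase that frees fatty acids at capillaries, had 323, 918 and 694 CPM in the right folds and 90.7, 726 and 338 CPM in the left folds. FABP4, a fatty acid carrier of capillaries and fat cells, had 22.7, 86.9 and 40.2 CPM in the right folds and 7.34, 61.5 and 15.9 CPM in the left folds, and CD36, a fatty acid uptake protein of capillaries and muscle, 89.3, 162 and 189.9 CPM in the right folds and 28.1, 143 and 91.7 CPM in the left folds. Muscle also expresses LPL, CD36 and FABP3, and muscle genes were likewise lowest in the left fold of animal 1. The contractile protein TAGLN of smooth muscle had 6.63 to 11.9 CPM. The lymphatic regulator PROX1 had 1.48 to 6.07 CPM, and the lymphatic receptor STAB2 had 0 reads. PDPN, which lymphatic and basal epithelial cells share, had 43.7, 11.2 and 15.0 CPM in the right folds and 126, 19.7 and 42.7 CPM in the left folds. The hemoglobin genes HBA and HBB2 had 67.1 to 236 CPM and 44.3 to 219.6 CPM.

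Leukocyte genes were few. The 4 leukocyte lists took 0.0400, 0.0181 and 0.0292% in the right folds and 0.0767, 0.0427 and 0.0729% in the left folds, and only 19 of 53 members reached a mean of 1 CPM. None of 13 T and NK cell genes did, with CD3D at 0 to 0.438 CPM. Among macrophage genes, C1QA had 4.87 to 23.2 CPM and CD68 3.53 to 37.9 CPM. S100A12, a calgranulin of neutrophils, had 220.4, 14.5 and 114 CPM in the right folds and 194, 214 and 275 CPM in the left folds, being lowest where the squamous genes were lowest, and MPO and CPA3, of neutrophils and mast cells, had 0 reads. Of 15 cartilage genes 7 had a mean of at least 1 CPM. The cartilage collagen COL2A1 had 0.195 to 1.48 CPM and MATN1 0 reads, while CLEC3A had 10.5 to 54.9 CPM, the regulator SOX9, which glands and other epithelia also express, 7.84 to 32.9 CPM, and the matrix link protein HAPLN1 8.45 to 24.4 CPM. Of 9 thyroid and thymus genes 3 had a mean of at least 1 CPM, and TG, the thyroid hormone precursor, had 0 to 0.205 CPM. The pigment enzymes TYRP1 and TYR had 13.9 and 3.22 CPM in the left fold of animal 2 and 0 reads in the other 5 libraries. The early response genes FOS and EGR1 were highest in animal 2. FOS had 8.91, 119.7 and 8.26 CPM in the right folds and 34.8, 172 and 5.60 CPM in the left folds, and EGR1 44.1, 232 and 32.8 CPM in the right folds and 198, 367 and 23.4 CPM in the left folds.

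**Figure D3:**
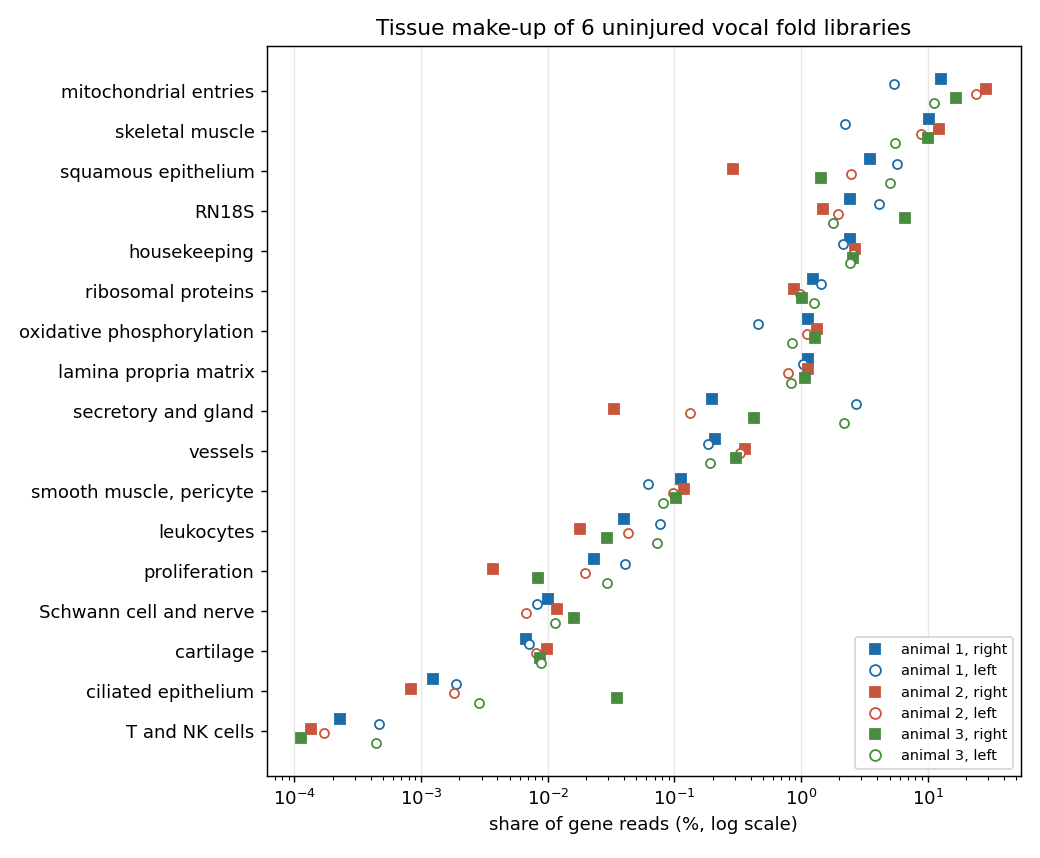
Share of gene reads (percent, log scale) taken by each gene list in the 6 uninjured libraries. Filled squares are right folds, open circles left folds, and colours the 3 animals. The summed lamina propria matrix lists lie close together at 0.792 to 1.13%, while squamous, secretory and ciliated genes spread widely.

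Right and left folds were set against each other within the 3 animals. The median entry was lower in the right fold by 0.33, 0.21 and 0.24 on the log2(CPM + 1) scale in animals 1, 2 and 3. The list medians that follow stand beside those values. Skeletal muscle members had median differences of 2.23, 0.40 and 0.88, with 61, 59 and 62 of 62 members higher in the right fold. The nuclear oxidative phosphorylation genes had 1.29, 0.25 and 0.63, general endothelial genes 1.01, 0.17 and 0.72 and fibroblast genes 0.60, 0.59 and 0.73. Squamous epithelium members had median differences of -1.12, -3.08 and -1.78, with 2, 0 and 3 of 52 higher in the right fold. The 12 proliferation genes had -0.68, -2.35 and -1.94, with 0 higher in the right fold in any animal. TOP2A, a topoisomerase of dividing cells, had 33.0, 3.74 and 8.41 CPM in the right folds and 58.9, 27.2 and 45.0 CPM in the left folds. Proliferation genes were thus lower in the same folds as the squamous genes, and the part of one in the other was not tested. Ribosomal protein genes stayed close to the median entry, at -0.16, -0.15 and -0.30. The muscle share was higher in the right fold of 3 of 3 uninjured animals, by 1.39 to 4.69 times, which in an exact two-sided sign-flip test cannot give a p below 0.25. Among the 12 injured animals it was higher in the right fold of 7, with right over left ratios of 0.143 to 9.86. These ratios went by group, with 0.143 to 2.56 in injury_only and 0.202 to 0.630 in Col1 animals. They were 1.36 to 9.86 with VFLP (man) and 2.31 to 7.27 with VFLP (au), and the cause was not tested. The squamous share was higher in the right fold of 0 of 3 uninjured animals (ratios of 0.117 to 0.609) and of 7 of 12 injured animals (0.502 to 4.05). Its ratios were 0.621 to 4.05 in injury_only animals, 1.08 to 1.78 with Col1, 0.908 to 1.10 with VFLP (man) and 0.502 to 0.992 with VFLP (au).

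**Figure D4:**
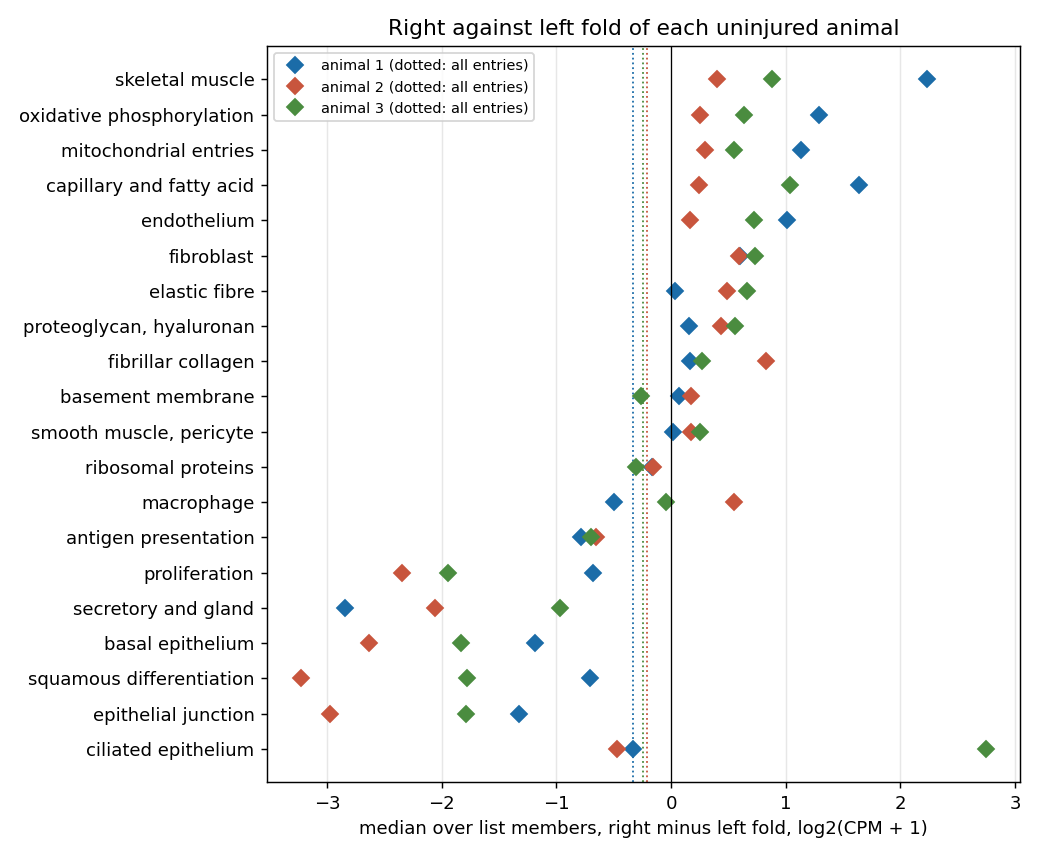
Median over the members of each list of the difference between right and left fold, in log2(CPM + 1), for the 3 uninjured animals. Dotted lines are the medians over all 13657 entries of at least 1 CPM, from -0.33 to -0.21. The skeletal muscle, oxidative phosphorylation and general endothelium lists lie right of these lines in each animal, and the basal, squamous, junction and proliferation lists left of them.

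Across all genes the fold difference was tested with edgeR's quasi-likelihood test with the animal as a block. It called 0 of 15348 entries (0%) at an adjusted p under 0.05, while 6005 had an unadjusted p under 0.05 and the smallest adjusted p was 0.0753. DESeq2 called 4310. With animal 1 left out edgeR called 1541, and with animal 2 or animal 3 left out 0. The 10 symbols of smallest p were all lower in the right fold, among them NRG1, a growth factor of the ERBB receptors, TSPAN8, a membrane protein of epithelia, PDYN, an opioid precursor, and COL21A1, a fibril-associated collagen. COL21A1 had 37.2, 8.54 and 33.8 CPM in the right folds and 237, 47.1 and 138 CPM in the left folds. NRG1 had 7.74, 0.918 and 12.1 CPM in the right folds and 39.9, 4.04 and 53.3 CPM in the left folds. TSPAN8 had 36.6, 2.89 and 18.1 CPM in the right folds and 228, 24.5 and 127 CPM in the left folds. The direction was shared by every animal for these. They were chosen for their small p in this same paired test, which favours a shared direction, so nothing is read from it. No adjusted p passed the threshold in edgeR.

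Folds of an animal and folds of different animals had similar median correlations. Over genes, log2 levels correlated at 0.915 to 0.933 for the 3 pairs of the same animal (median 0.926) and at 0.746 to 0.968 for the 12 pairs of different animals (median 0.929). These values describe libraries that share their genes. The spread was described by a fold SD, between the folds of an animal, and an animal SD, between the means of animals. Both are in log2(CPM + 1). Over 13657 entries, the median fold SD was 0.386 and the median animal SD 0.358, and 5494 entries (40.2%) had the larger animal SD. The animal SD is taken over means of right and left folds and so holds part of the fold spread. The fold SD includes any shift shared by all right folds. Which of them is larger therefore does not say whether animals differ more or less than folds. A fold SD above 1 was found for 1244 entries and below 0.25 for 3858. The largest fold SDs among genes of at least 10 CPM belonged to ZG16B (3.85), BPIFB1 (3.46), CRNN (3.01), CYP2A11 (2.72), DMBT1 (2.72), SFTPA1 (2.68), ORM1 (2.67), BPIFA1 (2.62), AGR2 (2.35) and SCGB3A1 (2.32), most of them secretory proteins. Genes with a large animal SD included NDUFB9 (3.69), CA6 (3.48), SCGB1A1 (3.22), NCOA4 (3.15), RPS7 (2.99), BPIFB1 (2.86), MINAR1 (2.77), BPIFA1 (2.74) and TIMM23 (2.72). CA6, a secreted carbonic anhydrase, had 133, 2.12 and 0.189 CPM in the right folds and 328, 0.292 and 36.9 CPM in the left folds. ZG16B, a lectin-like secreted protein, had 11.5, 12.4 and 0.0945 CPM in the right folds and 338, 15.7 and 306 CPM in the left folds. CRNN, the squamous protein cornulin, had 118, 1.62 and 30.5 CPM in the right folds and 0.205, 21.5 and 16.0 CPM in the left folds, and was higher in the right fold of animals 1 and 3, where KRT4 and KRT13 were higher in the left fold.

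A few genes hardly varied. RANBP9, a scaffold protein, had 87.3, 84.1 and 85.1 CPM in the right folds and 84.0, 80.5 and 83.4 CPM in the left folds, and LMBRD1, a lysosomal protein of cobalamin transport, 35.3, 34.5 and 37.5 CPM in the right folds and 35.1, 35.1 and 36.9 CPM in the left folds. These ranges are narrow beside the common control genes, since ACTB ran over 339 to 1948 CPM, GAPDH over 2592 to 15499.8 CPM and EEF1A1 over 3181 to 8924 CPM. EEF2, the elongation factor, ran over 883 to 1205 CPM. The steadiest genes were picked by their values and are given as a description.

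Some genes were near 0 in both folds of an animal and well expressed in another. The difference among the 3 animals, tested with edgeR with the side as a term, was called for 58 of 15348 entries (0.378%), of which 23 have a symbol. RPL34, a protein of the large ribosomal subunit and of smallest p among entries with a symbol, had 16.8, 14.8 and 285 CPM in the right folds and 19.6, 17.3 and 335 CPM in the left folds. It was highest in animal 3. RPS7, a protein of the small ribosomal subunit, had 176 and 235 CPM in the right and left fold of animal 1, 143 and 151 CPM in those of animal 2, and 3.40 and 4.33 CPM in those of animal 3. It was low in both folds of animal 3 alone. NCOA4, the carrier of ferritin to breakdown, had 69.5, 36.6 and 0.0472 CPM in the right folds and 54.9, 34.6 and 0.219 CPM in the left folds, and TIMM23, a channel of protein import into mitochondria, 41.4, 23.0 and 0.0472 CPM in the right folds and 21.7, 22.0 and 0.0438 CPM in the left folds. CHMP1B, of the membrane remodelling machinery, was near 0 in animal 1, with 0.109, 14.5 and 18.5 CPM in the right folds and 0.164, 20.1 and 22.5 CPM in the left folds. The adjusted p over the 2 degrees of freedom was 0.0150 for RPS7 and CHMP1B, 0.0293 for NCOA4 and 0.0275 for TIMM23. With a limit set after seeing these values, 44 entries were under 1 CPM in both folds of an animal and at 10 CPM or more in both folds of another, and 12 of them have a symbol. Of the 58 entries called, 25 were among these 44. The number called was 0 without animal 3, 43 without animal 2 and 262 without animal 1, and 2814 by DESeq2.

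Several of these genes have a second entry in the table. A total of 137 entries with a number in place of a symbol carry a RefSeq gene ID whose RefSeq symbol another entry bears, and in 55 such pairs both had a mean of at least 1 CPM. NDUFB9, a subunit of respiratory complex I, was near 0 in animal 2 with 79.8, 0.212 and 175 CPM in the right folds and 34.2, 0.0487 and 112 CPM in the left folds. Its second entry was near 0 in animal 3, with 81.3, 171 and 0.189 CPM in the right folds and 31.1, 150.4 and 0.350 CPM in the left folds. Their sum was 161, 172 and 176 CPM in the right folds and 65.3, 150.5 and 113 CPM in the left folds, so that no animal was near 0. SRP68, of the signal recognition particle, behaved likewise, with 30.9, 13.3 and 1.09 CPM in the right folds and 26.9, 13.3 and 1.58 CPM in the left folds for its symbol, 0.509, 11.4 and 26.2 CPM in the right folds and 0.123, 12.1 and 28.2 CPM in the left folds for its second entry, and 31.4, 24.6 and 27.3 CPM in the right folds and 27.0, 25.4 and 29.8 CPM in the left folds for the sum. The animal SD was 1.90 and 2.30 for these entries of SRP68 and 0.116 for their sum. The animal SD of the CHMP1B entries was 2.38 and 0.851, and that of their sum 0.324. Other pairs did not behave so, such as TMEM229B, with 2.54 and 0.772 for its entries and 0.965 for their sum. Of the 55 pairs, 22 had a sum with a smaller animal SD than both entries. How often this holds for unrelated pairs was not counted, so nothing is read from that number. With entries of the same RefSeq symbol summed, a step added after these values were seen, 44 entries were called. The 8 called entries that have a second entry, of 7 RefSeq symbols, had edgeR adjusted p values of 0.129 to 0.692 once summed. They were chosen as called before the sum, which favours a rise. For RPS7, NCOA4 and TIMM23 no such second entry was found, and genes of the ribosome have many near-identical copies, so their levels are uncertain. The cause was not tested.

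The same genes were set out in all 15 animals. NCOA4 was under 1 CPM in both folds of 8 animals, namely 1 uninjured and 7 injured, and at 22.0 CPM or more in every library of the other 7. TIMM23 was under 1 CPM in both folds of the same 8 animals, and at 6.88 CPM or more in the rest. RPS7 was under 10 CPM in 2 animals, animal 3 of the uninjured and animal 3 of the injury_only group, and at 113 CPM or more in the other 13. All 3 injury_only animals were among the 8 low in NCOA4 and TIMM23, and 2 of the 3 uninjured animals were among the other 7.

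**Figure D5:**
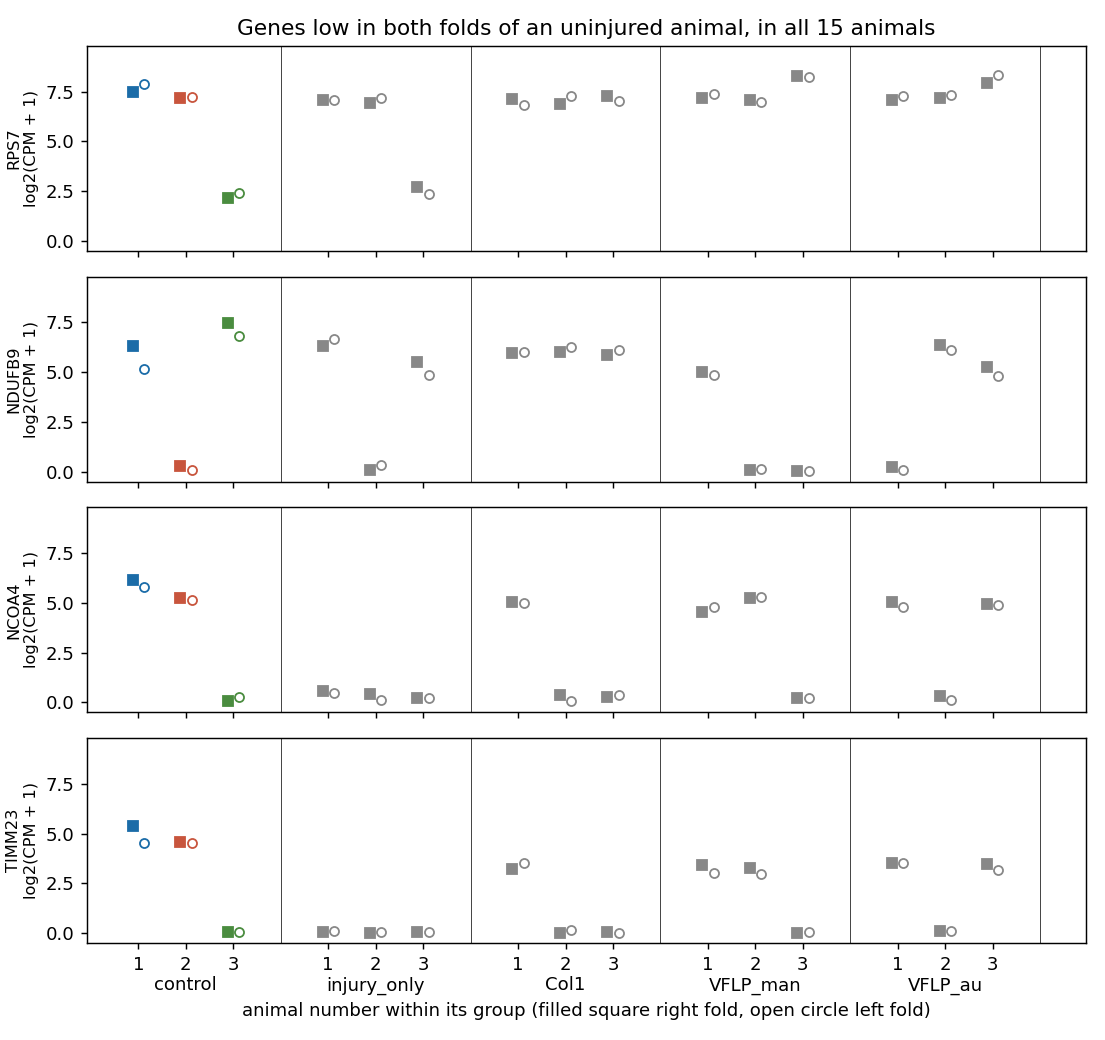
Level of 4 genes, log2(CPM + 1), in the right fold (filled squares) and left fold (open circles) of all 15 animals, uninjured animals in colour at the left. Both folds of an animal lie together, either high or low, and NCOA4 and TIMM23 are near 0 in the same 8 animals.

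Uninjured folds were compared with injury_only folds to show where the baseline differs from stripped mucosa. Both lie in batch C (6 uninjured and 5 injury_only libraries), whereas all injected groups lie in batch D, so that injection and batch cannot be told apart there and those groups were not compared. Reads were summed per animal, giving 3 animals against 3, with injury_only animal 1 represented by its left fold, and edgeR called 2136 of 16475 entries (13.0%), with 1344 higher (8.16%) and 792 lower (4.81%) in uninjured folds. The number called was 2 without uninjured animal 3, 691 without uninjured animal 2, 2767 without uninjured animal 1 and 0 without any of the 3 injury_only animals, while DESeq2 called 4650. Right folds alone gave 903 and left folds alone 0. Levels in this comparison are CPM scaled by TMM (trimmed mean of M values), with SD over 3 animals. With plain totals in place of TMM every log2 fold change would shift by -0.36.

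Of the 40 symbols of highest level, 23 were higher in uninjured folds and 0 lower. Their median log2 fold change was 1.58, against -0.07 over all entries tested. These symbols were chosen for a high level in the uninjured libraries themselves, which favours the higher side, so the count is a description and nothing is read from it. Muscle genes were prominent. Over all entries tested, 8.16% were called higher in uninjured folds. Of 24 genes of the sarcomere list 20 were higher, of 9 fast fibre genes 6, of 11 slow fibre genes 8 and of 15 excitation-contraction genes 11. These lists had median log2 fold changes of 2.01, 1.93, 2.01 and 1.96. MYH1 had 17639 ± 7012 CPM in uninjured and 3258 ± 309 CPM in injury_only animals (log2 fold change 2.44, SE 0.44, adjusted p = 0.0292). MYH6 had 673 ± 477 CPM in uninjured and 31.4 ± 16.2 CPM in injury_only animals (log2 fold change 4.42, SE 0.71, adjusted p = 0.0250). ACTA1 did not pass, with 5412 ± 2731 CPM in uninjured and 2608 ± 213 CPM in injury_only animals (log2 fold change 1.05, SE 0.41, adjusted p = 0.125). The embryonic chain MYH3, made in new fibres, had 16.2 ± 8.78 CPM in uninjured and 44.2 ± 27.2 CPM in injury_only animals (log2 fold change -1.45, SE 0.60, adjusted p = 0.144). The skeletal muscle share was 2.21 to 12.4% over the uninjured libraries and 0.369 to 4.40% over the 6 injury_only libraries, so the groups overlapped. The 0.369% belonged to the right fold of injury_only animal 1, the batch D library that the test left out. The injury_only libraries of batch C had 1.51 to 4.40% and overlapped with the uninjured ones as well. Of 30 nuclear oxidative phosphorylation genes 27 were higher (median 1.46), and the part of the muscle share in this was not tested. FABP3 and CD36 were also higher, FABP3 with 153 ± 55.0 CPM in uninjured and 16.9 ± 3.47 CPM in injury_only animals (log2 fold change 3.17, SE 0.34, adjusted p = 0.0241).

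Matrix genes are set beside the shares over all entries, 8.16% higher and 4.81% lower. Of 20 fibroblast genes 6 were higher and 0 lower (median log2 fold change 1.02), of 16 elastic fibre genes 3 (median 0.52), of 18 proteoglycan genes 3 (median 0.31) and of 12 fibrillar collagen genes 1 (median 0.56). Decorin DCN had 1110.4 ± 351 CPM in uninjured and 348 ± 43.3 CPM in injury_only animals (log2 fold change 1.67, SE 0.28, adjusted p = 0.0263). MFAP5, a microfibril protein, had 263 ± 65.0 CPM in uninjured and 69.4 ± 18.7 CPM in injury_only animals (log2 fold change 1.92, SE 0.28, adjusted p = 0.0241). SPARCL1, a relative of SPARC, had 651 ± 277 CPM in uninjured and 116 ± 41.3 CPM in injury_only animals (log2 fold change 2.49, SE 0.43, adjusted p = 0.0266). COL1A1 had 141 ± 30.9 CPM in uninjured and 119 ± 27.8 CPM in injury_only animals (log2 fold change 0.25, SE 0.24, adjusted p = 0.500), and COL3A1 had 402 ± 168 CPM in uninjured and 278 ± 81.7 CPM in injury_only animals (log2 fold change 0.53, SE 0.36, adjusted p = 0.342). Neither collagen passed the threshold, and the count of fibrillar collagen genes was close to the share over all entries. Of 19 basement membrane genes 2 were higher and 1 lower, again close to that share, with NID1, the linker nidogen, at 138 ± 18.3 CPM in uninjured and 68.9 ± 3.17 CPM in injury_only animals (log2 fold change 1.01, SE 0.14, adjusted p = 0.0241).

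No squamous epithelium gene passed the threshold. None of 15 basal, 21 squamous differentiation and 16 junction genes was called by edgeR, with 0, 2 and 2 at an unadjusted p under 0.05. KRT4 had 7261 ± 2297 CPM in uninjured and 7349.9 ± 1742 CPM in injury_only animals (log2 fold change -0.02, SE 0.41, adjusted p = 0.981). Called lower in uninjured folds were 4 of 24 ciliated and 5 of 15 secretory genes, with 0 called higher. Over all entries 4.81% were called lower. Of the ciliated and secretory genes, 0 had a log2 fold change above 0 (medians of -3.81 and -2.37). All 24 ciliated genes passed the filter on counts here, against 16 in the uninjured libraries alone. Genes that pass through their injury_only counts favour the lower side, so the ciliated direction is a description. BPIFA1 had 3706 ± 3273 CPM in uninjured and 25562 ± 11566 CPM in injury_only animals (log2 fold change -2.79, SE 1.22, adjusted p = 0.161), and so did not pass. CFAP43, a protein of ciliary motion, had 5.50 ± 5.56 CPM in uninjured and 78.2 ± 64.8 CPM in injury_only animals (log2 fold change -3.82, SE 0.95, adjusted p = 0.0480). The secretory share was 0.0334 to 2.71% in uninjured and 0.230 to 18.9% in injury_only libraries. The ciliated share was 0.000833 to 0.0350% in uninjured and 0.00244 to 0.230% in injury_only libraries. These injury_only ranges cover all 6 libraries, with the batch D library that the test left out. Over these libraries both shares overlapped between the groups. Of 10 antigen presentation genes 5 were called lower, with the invariant chain CD74 at 63.6 ± 8.43 CPM in uninjured and 172 ± 30.2 CPM in injury_only animals (log2 fold change -1.43, SE 0.18, adjusted p = 0.0241). Of 13 T and NK cell genes 9 passed the filter on counts, against 2 in the uninjured libraries alone. Of these 9 genes 3 were lower and 0 higher, and this direction too is a description.

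The symbols of smallest p were NOS1, EMC9, QSOX1, CACNA2D3, ADCY9, RASGRP3, PKDCC, SLC25A4, XIRP1 and PPM1J, all higher in uninjured folds except QSOX1. NOS1, the neuronal nitric oxide synthase that muscle also carries, had 49.7 ± 5.98 CPM in uninjured and 10.6 ± 1.16 CPM in injury_only animals (log2 fold change 2.24, SE 0.16, adjusted p = 0.0241). SLC25A4, the ADP and ATP carrier of muscle mitochondria, had 877 ± 213 CPM in uninjured and 139 ± 9.39 CPM in injury_only animals (log2 fold change 2.66, SE 0.24, adjusted p = 0.0241). QSOX1, a secreted sulfhydryl oxidase, had 54.8 ± 3.13 CPM in uninjured and 163 ± 14.7 CPM in injury_only animals (log2 fold change -1.57, SE 0.13, adjusted p = 0.0241). The 3 animals of each group did not overlap for these 3 genes, which were chosen for their small p in this same comparison. EEF1A1, which was not called (adjusted p = 0.252, edgeR), did not overlap either. The share of all entries without overlap was not counted, so nothing is read from this.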

How the data were processed

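Read counts per gene were deposited as whole numbers for each library, made by the authors with STAR 2.7.10b per the submitters' processing notes. As for the build and the gene models, none is named: not given in the sources used here. Libraries were prepared from 100 ng RNA with the KAPA mRNA HyperPrep kit and read as pairs of 100 bases, per the labels' protocols. Of the 3 count columns in each deposited file, the one for the second read strand was used as raw counts, and the 4 rows that name no gene (unmapped, multimapping, no feature, ambiguous) stayed out of all totals. In the uninjured libraries these rows were 3.28 to 4.15, 14.5 to 34.5, 5.07 to 6.69 and 0.602 to 1.80% of all reads. Of 16694 entries with a symbol 15808 matched RefSeq (assembly mOryCun1.1, names alone), and 521 of 14615 numbered entries were named by their RefSeq gene ID.

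CPM was computed over all gene reads. Spread was computed on log2(CPM + 1) for the 13657 entries of mean CPM of at least 1. Tests used edgeR 4.0.16 in R 4.3.3 (quasi-likelihood F test, TMM factors, filterByExpr with a minimum count of 10) with Benjamini-Hochberg adjustment over all entries and a threshold of 0.05. The standard error of a log2 fold change is its size divided by the square root of F, an approximation. The side test had the animal as a block, the animal test had the side as a term, and the comparison with injury_only folds used reads summed per animal. The folds of an animal are paired by the labels. The replicate numbers of the uninjured and injury_only animals name different rabbits and do not pair them. P-values of the test among animals are about these 3 rabbits, with folds as replicates. DESeq2 1.42.0 was an alternative. The scripts were tested on simulated data. Intervals and the limit for 0 reads (3 counts) cover counting error only, since no molecular identifiers are mentioned in the labels.

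The uninjured libraries and the 41 gene lists (628 genes) were chosen with earlier results of these data known. The genes named come from the 40 symbols of highest mean CPM, up to 4 members of each list by level and those at 0 reads, the 10 symbols of smallest p in each test, and the 10 of largest fold and animal SD. Other list members named (such as TP63, PAX7 and FOXJ1), the steadiest genes and the entries with a second entry were chosen after their values were seen. List genes that are not in the tables under their symbol are not analysed here, and some named by the rule are not reported.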

Additional observations from a re-analysis of the deposited data

Results flagged for a closer look

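Of 94 values checked over the 6 uninjured libraries, 2 had a library far from the rest (Dixon's ratio of the outermost gap to the whole range, at its 95% critical value). Chance marks about 1 in 20 such groups. The share of ciliated epithelium genes was 0.0350% in the right fold of animal 3, and the next highest library had 0.00287%. The share of venous endothelium genes was 0.0909% in the left fold of animal 1, and the next highest library had 0.0387%. CLU, a secreted chaperone that this list holds and that glands also make, had its highest level in that fold, where the secretory share was also the highest of the 6 libraries. The part of other cell types in these values was not tested.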

How the results depend on the processing

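Over all alternatives, 103 summary values kept their direction and size class and 21 moved. For the right against left fold difference, where 0 entries were called, DESeq2 called 4310, the fit with no replicate block 0, and leaving out each uninjured animal 0 to 1541. For the difference among animals, where 58 were called, DESeq2 size factors in edgeR gave 99, DESeq2 2814, no filter on low counts 188, no side term 24, and leaving out each animal 0 to 262. For uninjured against injury_only folds, where 2136 were called, DESeq2 called 4650, the fit with the replicate number as a block 627 (these numbers share no animal), left folds alone 0, right folds alone 903, and leaving out each animal 0 to 2767. All 10 named genes of that comparison no longer passed the threshold, with the same direction, in left folds alone, without uninjured animal 3 and without each injury_only animal in turn. In right folds alone QSOX1 (adjusted p = 0.124, edgeR) and XIRP1 (0.0873) also lost the call, so that QSOX1, the named gene lower in uninjured folds, passed on neither side alone. The lamina propria share was 1.21% with mitochondrial entries left out of the total. With no filter on low levels the median fold SD was 0.252 and the median animal SD 0.229, and leaving out each animal gave 0.224 to 0.439 for the animal SD. Leaving out the right fold of uninjured animal 2 or RN18S, or summing entries of a RefSeq symbol, were added after the data were seen and moved none of the summary values they were run on. The planned ranking per gene length was not run, for want of lengths. The causes of these shifts were not tested. Depth hardly limits the skeletal muscle share: the half-width of its counting interval was at most 0.264% of the share, far under its spread between folds. For lists of low level depth does matter. The half-width reached 48.0% of the share for T and NK cell genes and 18.5% for ciliated genes.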

Other observations

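The pigment enzymes TYRP1 and TYR had reads in a single fold. In the left fold of animal 2, TYRP1 had 13.9 CPM, TYR 3.22 CPM and DCT 7.80 CPM. TYRP1 and TYR had 0 reads in the other 5 libraries, where DCT had at most 0.909 CPM, and PMEL had 0 reads in all 6. MITF, the regulator of pigment cells that other cell types also express, had 22.8 to 82.0 CPM over the 6 libraries, lowest in the left fold of animal 1 and highest in the right fold of animal 2. TSHR, the receptor for thyroid stimulating hormone, had 17.3, 66.1 and 56.3 CPM in the right folds and 3.86, 77.0 and 40.9 CPM in the left folds, while the thyroid regulator PAX8 reached at most 0.0727 CPM. These genes were singled out after their values were seen.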
